A study of Rattus norvegicus with 18 samples.

Results

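The data examined here were the mRNA levels of 9 genes of sphingolipid synthesis and sphingosine 1-phosphate (S1P) signaling in rat cortex after subarachnoid hemorrhage (SAH). They were Sptlc1, Sptlc2 and Sptssb, which encode parts of serine palmitoyltransferase, Acer2, an alkaline ceramidase, Sphk1 and Sphk2, the sphingosine kinases, and S1pr1, S1pr2 and S1pr3, which are S1P receptors. All 9 of the 30735 genes in the count table were found by symbol, and all 9 were among the 18444 genes that passed the filter on low counts. They were chosen for their roles and for how they behaved in these same libraries, so their own values are given as a description, with no test.

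Adult Sprague Dawley rats aged 8 to 10 weeks were used, and their sex was not given in the sources used here. In the SAH rats a nylon filament passed through the internal carotid artery perforated an intracranial vessel, and sham rats had the same operation with no perforation. Cortex was taken at day 1 (SAH 1d) or day 7 (SAH 7d) after SAH, and from sham rats. Each of the 3 groups held 6 libraries, and the labels list no second library of the same rat, so the spread given here is that between libraries. The whole cortex of one side went into each library according to the methods, while the labels name both sides. In either case the RNA comes from all cell types together, with the vessels and any blood left in them.

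Sphingolipids are built from serine and palmitoyl-CoA by serine palmitoyltransferase, a complex of 1 SPTLC1 chain with SPTLC2 or SPTLC3 and a small activating subunit, SPTSSA or SPTSSB. The small subunit raises the activity of the enzyme and shifts which acyl-CoA it takes. The product is turned into ceramide, ceramidases release sphingosine from ceramide, and sphingosine kinases phosphorylate it to S1P. S1P is exported, binds G-protein-coupled receptors, and is broken down by a lyase and by phosphatases. In brain, S1PR1 is known for its role in keeping endothelial junctions closed, and S1PR2 and S1PR3 couple to other G proteins and act in vessel tone, glia and immune cells.

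The region before the transcription start is shown for Sptssb, Acer2 and S1pr3, because their windows held a match to the HIF core, 1 of 3 motifs searched, and because their levels differed by more than 2-fold between SAH 1d and sham. RefSeq promoter entries were found for 9 of 9 members. The 250 bases before the start are written 5′ to 3′ in the direction of transcription, from build GRCr8 of the rat genome, which is not the build of the counts. Capitals mark the HIF core ACGTG, read on either strand, so that it appears as CACGT in Acer2. Sptssb was at chr2:156460910-156461159 on the minus strand, Acer2 at chr5:106437598-106437847 on the plus strand and S1pr3 at chr17:13946014-13946263 on the minus strand.
Sptssb: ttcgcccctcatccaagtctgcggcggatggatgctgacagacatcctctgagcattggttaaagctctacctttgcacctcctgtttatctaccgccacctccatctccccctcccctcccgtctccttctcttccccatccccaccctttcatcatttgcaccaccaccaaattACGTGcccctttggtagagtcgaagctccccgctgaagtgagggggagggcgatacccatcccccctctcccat
Acer2: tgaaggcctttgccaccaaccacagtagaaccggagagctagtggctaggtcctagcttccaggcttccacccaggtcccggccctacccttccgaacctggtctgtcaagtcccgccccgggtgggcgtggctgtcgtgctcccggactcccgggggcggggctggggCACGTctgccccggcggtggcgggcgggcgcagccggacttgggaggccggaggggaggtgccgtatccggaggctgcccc
S1pr3: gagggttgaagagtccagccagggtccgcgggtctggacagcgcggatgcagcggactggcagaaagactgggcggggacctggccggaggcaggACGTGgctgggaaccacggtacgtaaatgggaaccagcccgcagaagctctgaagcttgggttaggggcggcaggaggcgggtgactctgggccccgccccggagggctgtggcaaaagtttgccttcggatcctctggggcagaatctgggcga
The first base of the match lay at -74 in Sptssb, -81 in Acer2 and -155 in S1pr3, counted from the start site. Because RefSeq lists longer transcripts of these genes, 250, 75 and 200 bases of the respective windows lay within the annotated gene span. The HIF core was found in 3 of the 11 windows of the members (Sphk1 has 3 starts), against 16.6% of the 33469 windows of all genes. An AP-1 motif, TGANTCA, was found in 0 of the 11 windows and in 6.34% of all windows. A STAT motif, TTCNNNGAA, was found in 1 of the 11, that of the last listed start of Sphk1, and in 7.67% of all windows. None of the 3 motifs overlapped another in these windows. A match is only a run of letters, and binding was not measured here.

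Levels between genes can be compared only per length, so the authors' FPKM values (fragments scaled to transcript length and library size) were used for the order of the 9 genes. In sham cortex, S1pr1 had the highest median, 55.1 FPKM, with 49.9 in the lowest library, above the 19.3 FPKM of the highest Sptssb library. Sptssb (median 14.6 FPKM), Sptlc1 (14.3), Sphk2 (11.7) and Sptlc2 (8.98) followed, and each overlapped its neighbour in this order except Sptlc1 and Sphk2. S1pr3 (2.71), Acer2 (2.38) and S1pr2 (1.39) came next, with overlapping ranges between neighbours. Sphk1 was lowest at 0.482 FPKM, and its highest sham library, 0.610, lay under the lowest of S1pr2, 1.09. In SAH 1d the median of S1pr3 was 12.7 FPKM and that of Sptssb 4.31 FPKM, so that S1pr3 stood above Sptlc2 and Sphk2 in the order of medians and Sptssb below Acer2. At day 7 Sptssb was at 10.5 FPKM, between Sptlc2 and Sphk2, and S1pr3 at 3.33 FPKM, between S1pr2 and Acer2.

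Before the individual genes, 3 libraries have to be named, because they stood apart. The depth of the 18 libraries was 27270026 to 38271014 counts. SAH 1d-3 held a summed normalized level of 854.5 CPM (counts scaled to library size) for 7 markers of monocytes and macrophages, against at most 263.7 CPM in the other SAH 1d libraries and 109.0 to 173.0 CPM in sham. SAH 1d-3 also had the highest endothelial (494.2 CPM, others at most 335.6), neutrophil (63.2, others at most 15.1) and red cell sums (82.8, others at most 36.4) of its group. Its neuronal sum was the lowest, 4929 CPM against at least 5170 CPM. Its mural, astrocyte, oligodendrocyte and choroid plexus sums lay within the range of the others. SAH 7d-5 held 8897 CPM for the monocyte and macrophage list, against at most 381.5 CPM in the other SAH 7d libraries. It also held 4211 CPM for 7 markers of meningeal fibroblasts, where the others reached 452.9 CPM, and 2416 CPM for 8 neuronal markers, where the others had at least 6740 CPM. The library sham-1 held the highest S1pr1 and S1pr2 levels of its group. Values are therefore also given with SAH 1d-3 and SAH 7d-5 left out.

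Some markers of other cell types moved between the groups as well. In SAH 1d against sham, 7 of 8 neuronal markers were lower and 0 higher by the edgeR test described below, with summed levels of 4929 to 6208 CPM in SAH 1d and 6425 to 9860 CPM in sham. The astrocyte list summed to 4586 to 5753 CPM against 2142 to 3901 CPM, with 2 of 8 higher and 1 lower. The endothelial list summed to 273.0 to 494.2 CPM against 168.4 to 289.6 CPM, with 3 of 7 higher. Of the other lists, 1 of 8 mural, 1 of 7 fibroblast, 4 of 7 monocyte and macrophage, 2 of 2 neutrophil, 1 of 4 T cell and 2 of 5 choroid plexus markers tested were higher, while 1 of 8 oligodendrocyte and 1 of 7 microglial markers were lower. Of all genes tested, 14.9% were called higher and 10.5% lower in this comparison. A single call in a list of 7 or 8 markers was near these shares and does not show a shift of that cell type. The 3 red cell markers summed to 18.3 to 82.8 CPM in SAH 1d and 3.63 to 39.5 CPM in sham. The choroid plexus list reached 1061 CPM in 1 SAH 1d library and at most 68.9 CPM in sham. Siglech, a microglial marker, was the only listed marker in the table at 0 in all sham libraries. In such bulk tissue, fewer cells of a type and less RNA per cell cannot be told apart. The part of these shifts in the levels below was not tested.

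**Figure D1:**
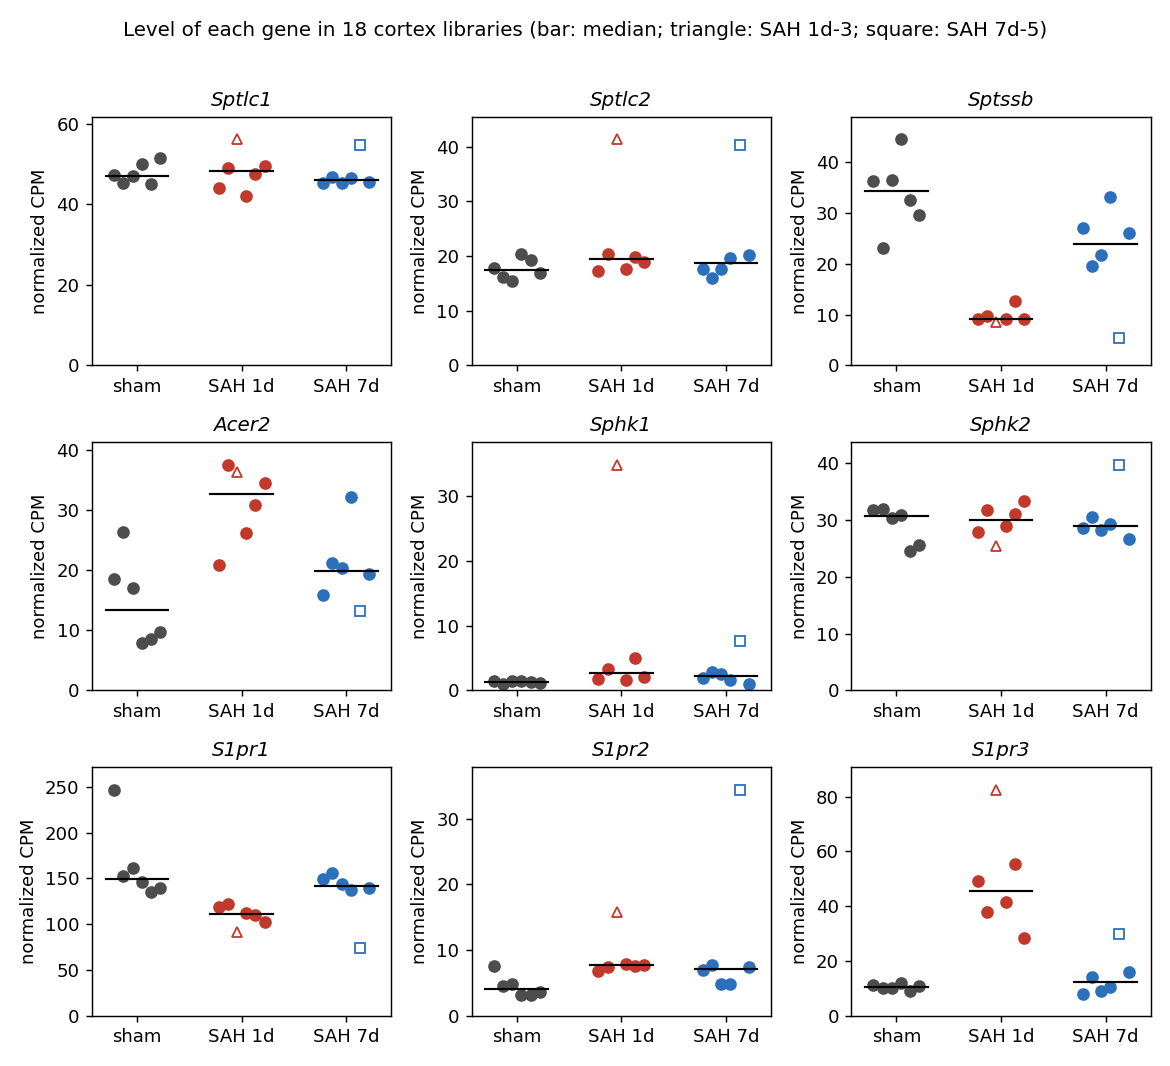
Level of each of the 9 genes in the 18 cortex libraries, in TMM-normalized CPM (linear axis from 0), by group; each point is 1 library, the bar is the group median, and triangles and squares mark SAH 1d-3 and SAH 7d-5. Sptssb lay between 8.59 and 12.7 CPM in SAH 1d, under every sham library, and S1pr3 between 28.3 and 82.5 CPM, above every sham library, while Sphk1 reached 34.9 CPM in SAH 1d-3 alone.

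The large chains of serine palmitoyltransferase overlapped between sham and SAH 1d, while the small subunit Sptssb did not. Sptlc1, the chain that every form of the enzyme needs, had medians of 47.1, 48.3 and 46.0 CPM in sham, SAH 1d and SAH 7d. Its lowest and highest libraries were 45.0 and 51.6 CPM in sham, 42.0 and 56.1 CPM in SAH 1d, and 45.4 and 54.8 CPM in SAH 7d, so the 3 groups overlapped throughout. For Sptlc1 the log2 fold change at day 1 was 0.01 (SE 0.08, n = 6 against 6).

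Sptlc2 carries the catalytic residue of the complex. It ran from 15.5 to 20.4 CPM in sham (median 17.4), from 17.3 to 41.3 CPM in SAH 1d (median 19.4) and from 16.0 to 40.4 CPM in SAH 7d (median 18.6). The high values were those of SAH 1d-3 and SAH 7d-5 alone, and the next library in each group was at 20.3 CPM. The log2 fold change against sham was 0.35 (SE 0.20) at day 1 and 0.31 (SE 0.21) at day 7, and 0.09 and 0.05 without those libraries. In the share of FPKM over Sptlc1, Sptlc2 and Sptlc3, Sptlc2 had medians of 38.6%, 41.8% and 41.1% in the 3 groups.

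Sptssb, the small subunit that lets the enzyme take longer acyl chains, was at 0.290 of its sham level in SAH 1d. Sham libraries ran from 23.2 to 44.5 CPM with a median of 34.4 CPM. SAH 1d libraries ran from 8.59 to 12.7 CPM with a median of 9.23 CPM, and none reached the lowest sham library. On the log2 scale the difference was -1.79 (SE 0.15), and -1.75 (SE 0.15) without SAH 1d-3. By day 7 the median was 23.9 CPM, with a range of 5.29 to 33.2 CPM that overlapped both other groups. The lowest value was that of SAH 7d-5, and the other 5 libraries lay at 19.5 CPM or more, above every SAH 1d library. Against sham the day 7 log2 fold change was -0.61 (SE 0.32), and -0.40 (SE 0.16) without SAH 7d-5. Against SAH 1d it was 1.17 (SE 0.32), and 1.34 (SE 0.15) without both libraries.

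The paralogue Sptssa, which fills the same place in the complex, gave no such difference. Its medians were 48.7, 52.7 and 55.3 CPM in sham, SAH 1d and SAH 7d, and its log2 fold change at day 1 was 0.02 (95% interval -0.16 to 0.20, adjusted p = 0.887, edgeR). Per length, Sptssb made up 23.3 to 35.9% of the summed FPKM of both subunits in sham, with a median of 27.5%. In SAH 1d the share was 8.50 to 12.9% with a median of 9.88%, under every sham library. In SAH 7d the median share was 20.8% and the range 5.08 to 27.8%. In these SAH 1d libraries the neuronal list was lower, as given above, and its part in the level of Sptssb was not tested.

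The 3 genes with a profile most like that of Sptssb over the 18 libraries were Fstl4, Neurod6 and Lamp5. Likeness was the root mean square difference of log2(CPM + 0.1), each gene centred on its sham mean, and it was 0.43, 0.44 and 0.45. Neurod6 is a transcription factor and Lamp5 a membrane protein of cortical neurons. On the FPKM scale the 3 genes were Neurod6, Syndig1 and Lamp5.

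Acer2, which cuts ceramide in the Golgi and so yields sphingosine, was 2.12-fold higher in SAH 1d than in sham. It ran from 7.90 to 26.4 CPM in sham (median 13.4) and from 20.8 to 37.6 CPM in SAH 1d (median 32.6). Sham-2 lay above the lowest of the SAH 1d libraries, so the groups overlapped. This was a log2 fold change of 1.08 (SE 0.28), and 1.03 (SE 0.29) without SAH 1d-3. In SAH 7d the range was 13.2 to 32.2 CPM with a median of 19.9 CPM, which overlapped both groups. Its log2 fold change at day 7 was 0.47 (SE 0.31) against sham and -0.61 (SE 0.21) against SAH 1d.

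Of the other ceramidases, Acer3 had a log2 fold change of 0.09 (SE 0.11, adjusted p = 0.592, edgeR) in SAH 1d against sham. The lysosomal Asah1 had 0.22 (SE 0.12, adjusted p = 0.219) and the neutral Asah2 -0.16 (SE 0.27, adjusted p = 0.70). EdgeR called 0 of these 3 (25.4% of all genes), with 0 at an unadjusted p under 0.05 (38.8%). DESeq2 (30.3%) and limma voom (35.3%) also called 0. With only 3 genes, 0 calls cannot be told from these shares. Acer1 did not pass the filter and was not tested. It was near the floor, at 0.211 to 0.410 CPM in SAH 1d, 0 to 0.198 CPM in sham and 0 to 0.161 CPM in SAH 7d. Every SAH 1d library thus lay above every sham library for Acer1. The share of Acer2 in the FPKM of Acer2 and Acer3 had a median of 27.6% in sham, 45.9% in SAH 1d and 36.1% in SAH 7d. It ran from 18.71 to 46.95% in sham, 37.82 to 54.69% in SAH 1d and 18.85 to 52.45% in SAH 7d, so the groups overlapped.

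Sphk1, the inducible sphingosine kinase, was low in sham and higher in SAH 1d, with 1 library far above the rest. Sham libraries ran from 1.04 to 1.50 CPM (median 1.36). SAH 1d libraries ran from 1.68 to 34.9 CPM (median 2.69), all above sham. The highest was SAH 1d-3, and the next had 5.03 CPM. With SAH 1d-3 the log2 fold change was 2.65 (SE 0.74) and 1.08 (SE 0.28) without it, so this library set most of the size but not the direction. SAH 7d libraries ran from 1.03 to 7.65 CPM (median 2.25), overlapping both groups, and the highest, SAH 7d-5, stood over a next value of 2.85 CPM. At day 7 the log2 fold change against sham was 1.18 (SE 0.41), and 0.62 (SE 0.25) without SAH 7d-5. Against SAH 1d it was -1.47 (SE 0.82) with all libraries, 0.10 without SAH 1d-3 and -0.47 (SE 0.35) without both.

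Sphk2, the other kinase, which is known for its place in the nucleus and mitochondria, did not follow Sphk1. Its medians were 30.6, 29.9 and 28.9 CPM in sham, SAH 1d and SAH 7d, and its overall range was 24.6 to 39.7 CPM. The log2 fold change was 0.03 (SE 0.09) at day 1 and 0.07 (SE 0.11) at day 7. Per length, Sphk1 made up 3.29 to 5.75% of the FPKM of both kinases in sham, and in SAH 1d 4.50 to 56.3% with a median of 6.86%, the highest again in SAH 1d-3. The sham and SAH 1d shares overlapped.

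The 3 genes most like Sphk1 over the 18 libraries were Ier3, Thbs1 and Angpt2, with root mean square differences of 0.46, 0.46 and 0.48 on the centred log2(CPM + 0.1) scale. Thbs1 encodes thrombospondin-1, Angpt2 an angiopoietin made by endothelial cells, and Ier3 an immediate early response protein. On the FPKM scale they were Esm1, Adamts9 and Tnc.

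The receptors differed from sham in opposite directions at day 1. S1pr1, the most abundant, was lower in SAH 1d, with 91.3 to 122 CPM (median 110.9) against 135.4 to 246.6 CPM in sham (median 149.5), and the groups did not overlap. The log2 fold change was -0.58 (SE 0.14), or 0.670 of the sham level, and -0.53 (SE 0.14) without SAH 1d-3. The highest sham value was that of sham-1, above a next value of 161.2 CPM, and without sham-1 the log2 fold change was -0.43. In SAH 7d, 5 libraries lay between 136.8 and 155.6 CPM, within the sham range, and SAH 7d-5 lay at 74.2 CPM. At day 7 the log2 fold change of S1pr1 was -0.29 (SE 0.19) against sham, and -0.17 (SE 0.14) without SAH 7d-5.

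S1pr3, which signals through several G proteins in vessel walls and glia, was 4.68-fold higher in SAH 1d than in sham. Sham libraries ran from 8.89 to 12.0 CPM (median 10.4). SAH 1d libraries ran from 28.3 to 82.5 CPM (median 45.4), all above sham, with SAH 1d-3 highest and the next at 55.5 CPM. In log2 units the change was 2.23 (SE 0.21), and 2.01 (SE 0.15) without SAH 1d-3. In SAH 7d, libraries ran from 7.87 to 29.8 CPM (median 12.4), and apart from SAH 7d-5 the highest was 15.8 CPM, under every SAH 1d library. At day 7 the log2 fold change of S1pr3 was 0.47 (SE 0.28) against sham, 0.14 (SE 0.17) without SAH 7d-5, and -1.75 (SE 0.35) against SAH 1d.

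S1pr2, a receptor of vessel walls and immune cells, was 1.98-fold higher in SAH 1d. It ran from 3.14 to 7.59 CPM in sham (median 4.06) and from 6.84 to 15.9 CPM in SAH 1d (median 7.66). Sham-1 lay above the lowest of the SAH 1d libraries, while every other sham library lay under all of them. The log2 fold change was 0.99 (SE 0.26), and 0.74 (SE 0.20) without SAH 1d-3. In SAH 7d the range was 4.75 to 34.4 CPM (median 7.16), with SAH 7d-5 highest and the next at 7.67 CPM. The day 7 log2 fold change against sham was 1.30 (SE 0.49), and 0.50 (SE 0.24) without SAH 7d-5, and against SAH 1d it was 0.32 (SE 0.49), and -0.50 without SAH 7d-5.

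**Figure D2:**
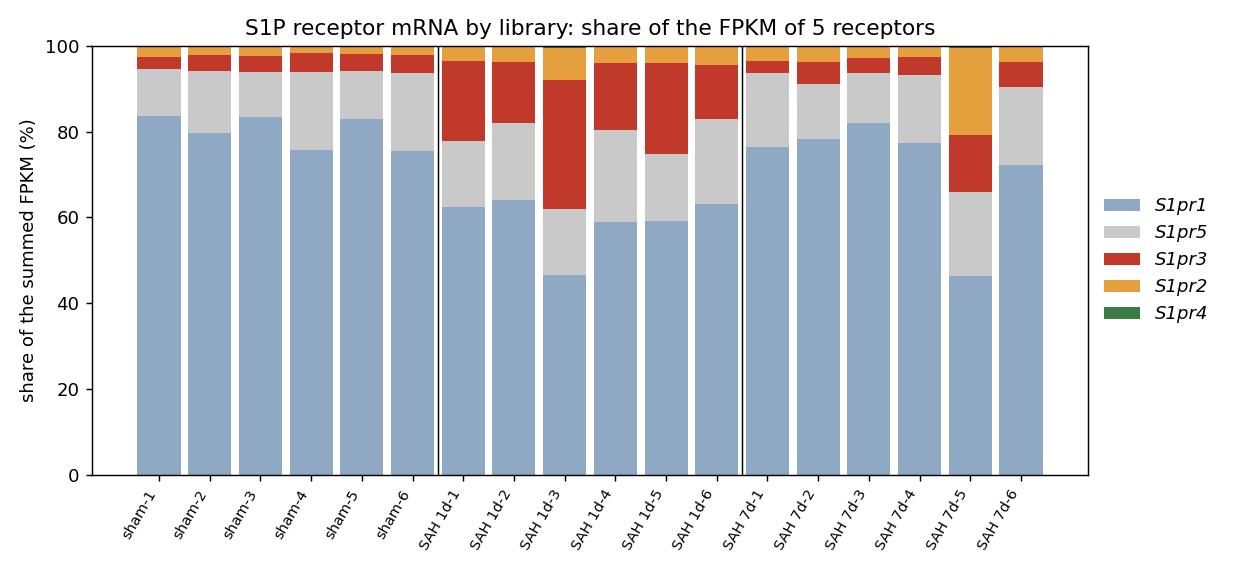
Share of each of 5 S1P receptors in their summed FPKM (percent, y axis), 1 bar for each of the 18 libraries, with lines between sham, SAH 1d and SAH 7d. S1pr1 held 75.4 to 83.7% in sham and 46.6 to 64.1% in SAH 1d, where S1pr3 held 12.4 to 30.1%; S1pr4 was under 0.489% and cannot be seen at this scale.

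Set against each other per length, the 5 receptors had another makeup at day 1 than in sham. S1pr1 made up 75.4 to 83.7% of their FPKM in sham (median 81.3%) and 46.6 to 64.1% in SAH 1d (median 60.7%), with no overlap. S1pr3 made up 2.73 to 4.49% in sham (median 3.81%) and 12.4 to 30.1% in SAH 1d (median 17.1%), again with no overlap. In SAH 7d the medians were 76.8% for S1pr1 and 4.72% for S1pr3, and SAH 7d-5 stood apart at 46.4% and 13.4%. S1pr2 had medians of 2.01%, 3.85% and 3.46% in the 3 groups and 20.2% in SAH 7d-5. S1pr5, a receptor known from oligodendrocytes, had medians of 12.8%, 16.8% and 16.6%. Its CPM differed by a log2 fold change of 0.23 (SE 0.16, adjusted p = 0.32, edgeR) at day 1. S1pr4, a receptor of blood cells, was at or under 0.710 CPM throughout, with a log2 fold change of 0.50 (SE 0.57, adjusted p = 0.539).

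**Figure D3:**
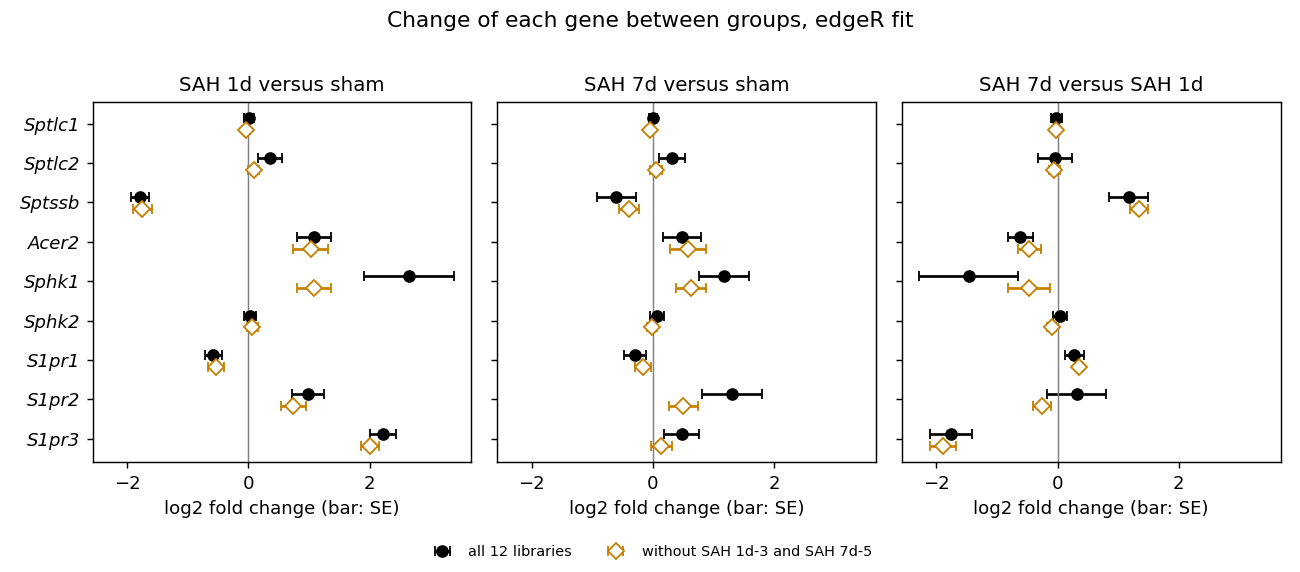
Log2 fold change of the 9 genes (x axis) in SAH 1d against sham, SAH 7d against sham and SAH 7d against SAH 1d, from edgeR; bars are 1 SE, black points use all 12 libraries and open diamonds leave out SAH 1d-3 and SAH 7d-5. Sptssb lay at -1.79 and S1pr3 at 2.23 at day 1 with little change in the diamonds, whereas Sphk1 moved from 2.65 to 1.08.

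Over the whole table, the edgeR quasi-likelihood test with Benjamini-Hochberg adjustment called 4684 genes in SAH 1d against sham at an adjusted p under 0.05, which is 25.4% of those tested. Among the 9 members 6 were called, Acer2, Sphk1, S1pr2 and S1pr3 as higher (14.9% of all genes) and Sptssb and S1pr1 as lower (10.5%). Of these, 4 also passed 2-fold (6.64% of all genes), namely Sptssb, Acer2, Sphk1 and S1pr3. In 4 members the groups did not overlap, against 13.3% of all genes. The members had been chosen with this contrast known, so these counts carry no weight beyond a description. DESeq2, which gave no adjusted value for Sphk1, called the other 5 (30.3% of all genes), limma voom called the same 6 (35.3%), and limma on the FPKM values called 5, without Sphk1 (28.9%). S1pr2 was not called with all 18 libraries in 1 edgeR fit.

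In SAH 7d against sham edgeR called 0 members and 0.0% of all genes, and 2 members, Sphk1 and S1pr2, had an unadjusted p under 0.05 (15.4% of all genes). DESeq2 and limma voom also called 0 members, and they called 2.49% and 0.0108% of all genes. DESeq2 gave no adjusted value for S1pr2, so it could not call that gene. No member separated the groups, against 1.23% of all genes. In SAH 7d against SAH 1d edgeR called 1 member, S1pr3 as lower, against 1.37% of all genes (1.08% lower). DESeq2 called 2 (5.49%), with no adjusted value for Sphk1 and S1pr2, and limma voom called 3 (14.7%). In 0 members did the groups not overlap, against 3.05%. With SAH 1d-3 and SAH 7d-5 left out edgeR called 3 (13.6% of all genes), Sptssb and S1pr1 as higher and S1pr3 as lower. The groups did not overlap in the same 3, against 11.7% of all genes. The call of S1pr3 in this comparison was absent when SAH 1d-1, -2, -4 or -5, or SAH 7d-1, -2, -3, -4 or -6, was left out, with its log2 fold change between -2.11 and -1.54 over all libraries left out in turn. The 3 comparisons share groups, so they are not independent of each other.

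The rest of the pathway was listed by textbook roles and not for how its genes moved, although earlier results of these data were known when the list was made. Of 59 other genes of sphingolipid metabolism, 57 passed the filter, and Acer1 and Mfsd2b did not. In SAH 1d against sham 11 of the 57 were called, 5 higher and 6 lower, which is 19.3% against 25.4% of all genes, and none of the 11 reached 2-fold. Their median log2 fold change was 0.00, against 0.01 over all genes. On the FPKM values, on which the median of all genes lay at 0.09, limma called 9 higher and 4 lower, and 28.9% of all genes.

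**Figure D4:**
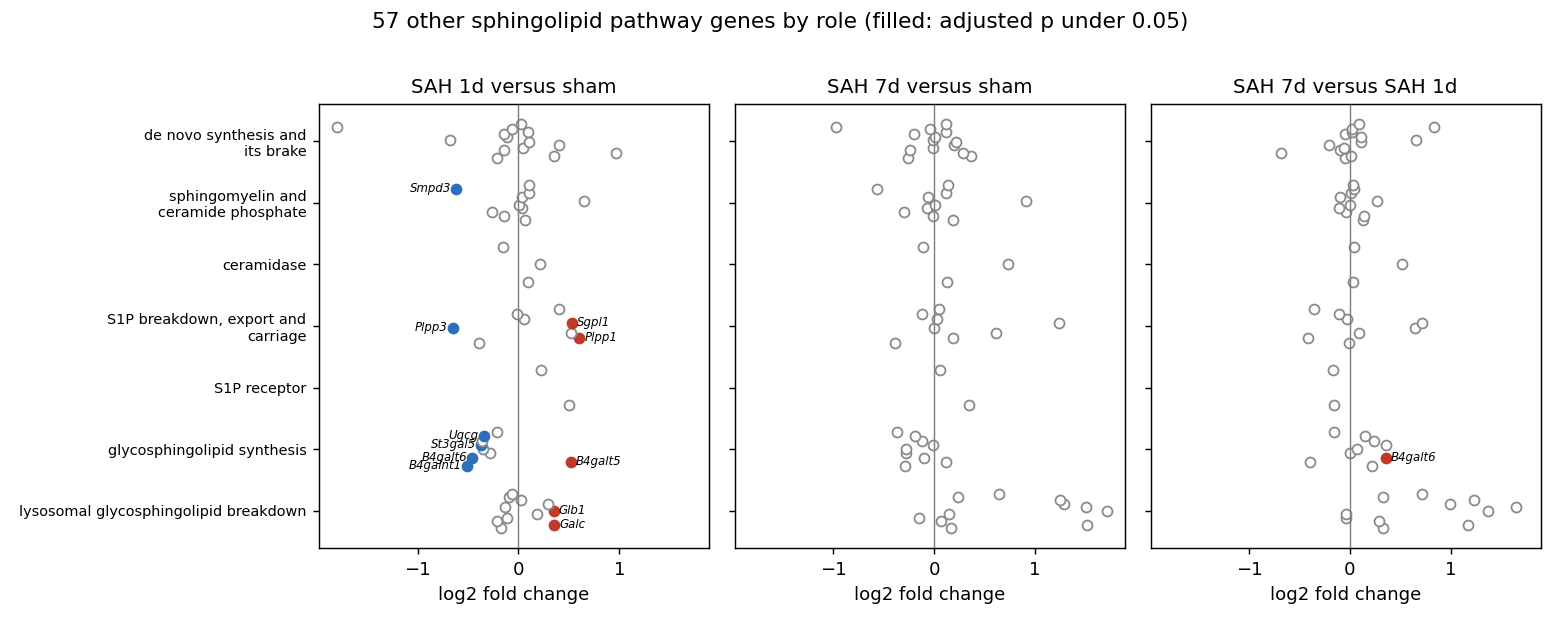
Log2 fold change (x axis) of 57 other sphingolipid genes, grouped by role (y axis), in the 3 comparisons; each point is 1 gene, and filled, named points have an adjusted p under 0.05 (red higher, blue lower). In SAH 1d 4 of 9 genes of glycosphingolipid synthesis were lower and 1 higher, and in SAH 7d against sham none of the 57 was called.

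In glycosphingolipid synthesis 4 of 9 genes were lower and 1 higher in SAH 1d, which is 55.6% called, against 25.4% of all genes (10.5% lower). Ugcg, which makes glucosylceramide as the first step, fell from a median of 169.9 to 128.9 CPM (log2 fold change -0.34, SE 0.09, adjusted p = 0.0179). B4galt6, a lactosylceramide synthase, fell from 119.6 to 86.2 CPM (-0.46, SE 0.09, adjusted p = 0.00332), while the other lactosylceramide synthase, B4galt5, rose from 61.0 to 82.7 CPM (0.52, SE 0.11, adjusted p = 0.00558). St3gal5, which makes the ganglioside GM3, fell from 201.1 to 156.0 CPM (-0.37, SE 0.09, adjusted p = 0.0115). B4galnt1, which makes the complex gangliosides, fell from 76.0 to 53.0 CPM (-0.51, SE 0.10, adjusted p = 0.00438). The groups did not overlap for B4galt5 and B4galnt1, and sham-1 lay within the SAH 1d range for Ugcg, B4galt6 and St3gal5. The calls of Ugcg and St3gal5 were absent on the FPKM values, with log2 fold changes as near to 0 as -0.22 and -0.24. B4galt6 and B4galt5 kept their calls in all 23 alternatives run, and B4galnt1 was not called with all 18 libraries in 1 edgeR fit (adjusted p = 0.0838). The neuronal marker list fell with these ganglioside genes, as given above, and its part was not tested.

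In S1P breakdown and export 3 of 8 genes were called in SAH 1d, or 37.5% against 25.4% of all genes. Sgpl1, the lyase that ends the pathway, rose from a median of 37.4 to 50.9 CPM (log2 fold change 0.53, SE 0.12, adjusted p = 0.00802), with every SAH 1d library above sham, but it was not called with all 18 libraries in 1 fit (adjusted p = 0.411). Plpp1, a lipid phosphate phosphatase at the cell surface, rose from 26.2 to 34.0 CPM (0.60, SE 0.17, adjusted p = 0.019), and its value was 0.41 without SAH 1d-3. Plpp3, a phosphatase of the same family, fell from 242.5 to 166.6 CPM (-0.65, SE 0.16, adjusted p = 0.0111), with every SAH 1d library under sham. The S1P exporter Spns2 had a log2 fold change of 0.40 (SE 0.16, adjusted p = 0.0799), and with SAH 1d-5 left out it was called, at 0.48 (adjusted p = 0.0389). Spns2 was also called with the replicate number as a block (21.6% of all genes). Limma called it on log2(FPKM + 1) (28.9%) and log2(FPKM + 0.1) (29.2%), but not on FPKM without a filter (16.4%). The S1P phosphatases Sgpp1 and Sgpp2 had 0.06 (SE 0.07, adjusted p = 0.581) and -0.01 (SE 0.23, adjusted p = 0.969), and the interval of Sgpp2 ran from -0.46 to 0.43.

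In de novo synthesis 0 of 14 genes were called at day 1 by edgeR (25.4% of all genes), 0 by DESeq2 (30.3%) and 0 by limma voom (35.3%). An unadjusted p under 0.05 in edgeR was found for 2, against 38.8% of all genes. With SAH 1d-3 left out edgeR called 1 of the 14, as lower, against 28.5% of all genes. Cers2, a ceramide synthase gene, had a log2 fold change of 0.35 (SE 0.14, adjusted p = 0.0799, edgeR). It was called as higher by edgeR without sham-1 (26.3% of all genes). Limma on the FPKM values also called Cers2, with and without a filter (28.9% and 16.4%). Of the 14, Sptlc3, the alternative to Sptlc2, had a log2 fold change of -1.80 (SE 0.92, adjusted p = 0.166). Its sham libraries were spread from 0.0926 to 6.75 CPM. In SAH 1d it lay at 2.47 CPM in SAH 1d-1 and at most 0.461 CPM in the others, and with SAH 1d-1 left out it was called as lower, at -2.97 (adjusted p = 0.0357). The ORMDL proteins are the brake on serine palmitoyltransferase. Ormdl1, Ormdl2 and Ormdl3 had log2 fold changes of -0.15 (SE 0.36), 0.10 (SE 0.11) and -0.07 (SE 0.08), with adjusted p of 0.796, 0.529 and 0.548 in edgeR.

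Of the 10 genes of sphingomyelin and ceramide phosphate metabolism, edgeR called 1 at day 1, against 25.4% of all genes. Smpd3, a neutral sphingomyelinase that releases ceramide, fell from a median of 110.1 to 74.8 CPM (log2 fold change -0.62, SE 0.16, adjusted p = 0.0144). DESeq2 called 2 of the 10 (30.3% of all genes), limma voom 2 (35.3%) and edgeR 2 without SAH 1d-3 (28.5%). The second gene was Cptp, as lower. With all libraries its log2 fold change was -0.27 (SE 0.10, adjusted p = 0.064, edgeR). Cptp was not called on the FPKM values. In lysosomal breakdown 2 of 11 rose, or 18.2% called, namely Galc, which cleaves galactosylceramide (0.35, SE 0.11, adjusted p = 0.037), and the beta-galactosidase Glb1 (0.35, SE 0.11, adjusted p = 0.0372). Both lay close to the threshold, and each lost the call in 13 of 23 alternatives. Galc lost it without SAH 1d-3, at a log2 fold change of 0.30, and Glb1 without SAH 1d-2, at 0.29. Galc was likewise not called without SAH 1d-1, -4 or -5 or without any of sham-2 to sham-6, and Glb1 without SAH 1d-1, -4, -5 or -6 or without the same sham libraries.

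In SAH 7d against sham edgeR called 0 of the 57 genes (0.0% of all genes), and 10 had an unadjusted p under 0.05 (15.4% of all genes). DESeq2 called 3 (2.49% of all genes), with Galc and Glb1 among them, and limma voom 0 (0.0108%). For some of the 57, Sgpl1 among them, DESeq2 gave no adjusted value. The lysosomal group had a median log2 fold change of 0.64 over its 11 genes, and 0.19 without SAH 7d-5. In that library Glb1 lay at 196.8 CPM over a next value of 46.6 CPM, and Galc at 72.9 CPM over 18.2 CPM. The microglial marker list summed to 2685 CPM in SAH 7d-5 and at most 1160 CPM in the other SAH 7d libraries. Sgpl1 had a day 7 log2 fold change of 1.24 (SE 0.52, adjusted p = 0.292), with 311.0 CPM in SAH 7d-5 and at most 57.9 CPM in the others. For Sptssa the day 7 difference was 0.11 (SE 0.12, adjusted p = 0.61), and for S1pr5 0.06 (SE 0.19, adjusted p = 0.873).

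Between the time points 1 of the 57 genes was called, which is 1.75% against 1.37% of all genes. It was B4galt6, higher in SAH 7d than in SAH 1d by a log2 fold change of 0.35 (SE 0.08, adjusted p = 0.0404, edgeR). Its libraries ran from 72.9 to 92.3 CPM in SAH 1d and from 101.5 to 118.3 CPM in SAH 7d, without overlap. The call was absent in 15 of 23 alternatives, among them leaving out any 1 library other than SAH 1d-3 or SAH 7d-5, and its log2 fold change with 1 library left out was 0.32 to 0.38. With SAH 1d-3 and SAH 7d-5 both left out, 6 of the 57 genes were called, against 13.6% of all genes, 5 higher, with Plpp3, B4galt6, St3gal5 and B4galnt1 among them, and B4galt5 lower. The genes named here had been called against sham at day 1 in the opposite direction, with the SAH 1d libraries shared between both comparisons.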

How the data were processed

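Cortex mRNA of 18 rats was sequenced on an Illumina platform from NEBNext Ultra libraries (1 µg RNA), which do not mark strand. The authors aligned clean reads to Rnor_6.0 (release 95), and deposited raw read counts and FPKM per gene; the submitters' processing notes name fastp, HISAT2, DESeq2 1.16.1 and the build mm9, which goes against the rat gene identifiers in the files. The counting program is not given in the sources used here. Replicate numbers came from the column names. The members and lists were chosen with earlier results of these data known.

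Counts were filtered with filterByExpr, scaled by TMM and fitted for the 12 libraries of each comparison with edgeR 4.0.16 (R 4.3.3; glmQLFit and glmQLFTest, two-sided), with Benjamini-Hochberg adjustment over 18444 genes. A gene was called at an adjusted p under 0.05. The SE is the absolute log2 fold change over the square root of F. CPM were TMM-scaled over all 18 libraries. Alternatives were DESeq2 1.42.0, limma 3.58.1 (voom, and log2(FPKM + 1) of the deposited FPKM), other filters and scalings, and leaving out each library; leaving out SAH 1d-3 and SAH 7d-5 together was added after seeing the data for the share, overlap and role summaries. The genes named were the 9 members, their 15 direct counterparts, the called pathway genes, Cptp and Cers2. The 3 genes most like Sptssb and the 3 most like Sphk1 were also named. Some listed genes are not reported here. The script was tested on simulated data. Replicate numbers mark different rats, and same-numbered libraries did not deviate together (correlations of -0.252 to 0.197). Promoters came from RefSeq (GRCr8).

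Depth was 27270026 to 38271014 counts per library. Of the listed markers, among others, Pecam1, Ccr2, Trac, Hba1, Hba2 and Hbb-b1 were not used here.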

Additional observations from a re-analysis of the deposited data

Results flagged for a closer look

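In 60 sets of 6 libraries (9 members and 11 named pathway genes in 3 groups), 22 had a highest or lowest library whose gap to the next one, on the log2 scale, was a larger part of the range than Dixon's 95% critical value, which chance passes in about 1 in 20 groups. Of the 22, 12 were in SAH 7d-5, 5 in SAH 1d-3, 4 in sham-1 and 1 in SAH 1d-5. Among the members, SAH 7d-5 stood apart at 54.8 CPM for Sptlc1, 40.4 for Sptlc2, 5.29 for Sptssb, 39.7 for Sphk2, 74.2 for S1pr1 and 34.4 CPM for S1pr2. SAH 1d-3 stood apart at 41.3 CPM for Sptlc2, 34.9 for Sphk1 and 15.9 CPM for S1pr2. SAH 1d-5 stood apart at 12.7 CPM for Sptssb and sham-1 at 246.6 CPM for S1pr1. Among the pathway genes, SAH 7d-5 stood apart at 23.4 CPM for B4galnt1, 87.8 for B4galt5, 72.9 for Galc, 196.8 for Glb1, 311.0 for Sgpl1 and 38.2 CPM for Smpd3. SAH 1d-3 stood apart at 63.2 CPM for Plpp1 and 74.4 CPM for Sgpl1, and sham-1 at 90.9 CPM for B4galt6, 158.1 for St3gal5 and 124.6 CPM for Ugcg. B4galt6 was higher in SAH 7d than in SAH 1d by 0.35 on the log2 scale, a call that was absent in 15 of 23 alternatives.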

How the results depend on the processing

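For the 57 pathway genes, 23 alternatives were run in each comparison. In SAH 1d against sham 11 were called (19.3%, against 25.4% of all genes). With 1 library left out the count was 9 to 16 (16 without sham-1, against 26.3% of all genes). With all 18 libraries in 1 edgeR fit the count was 7, against 13.3% of all genes. In SAH 7d against sham 0 were called (0.0% of all genes), 0 to 0 with 1 library left out and 3 by DESeq2's Wald test (2.49%). In SAH 7d against SAH 1d 1 was called (1.75%, against 1.37% of all genes), and 0 to 5 with 1 library left out. The count was 5 without SAH 7d-5 (8.38% of all genes) and 2 without SAH 1d-3 (1.89%). DESeq2 called 4 (5.49%) and limma voom 5 (14.7%). EdgeR called 4 with all 18 libraries in 1 fit (4.22%) and 6 without both SAH 1d-3 and SAH 7d-5 (13.6%). It was 0 with the replicate number as a block, 0 without a filter on low counts, 0 on log2(FPKM + 1), 0 on log2(FPKM + 0.1) and 0 on FPKM without a filter. The causes of these shifts were not tested. With the replicate block 9 pathway genes were called in SAH 1d against sham, and over all genes the calls were 3979, 0 and 29 in the 3 comparisons, against 4684, 0 and 252; the numbers do not pair rats, and Sphk1 was not called in SAH 1d against sham in that fit. Over all genes, the other tests called 5596 (DESeq2) and 6502 (limma voom) in SAH 1d against sham, 459 and 2 in SAH 7d against sham, and 1012 and 2718 in SAH 7d against SAH 1d. Among the pathway genes called in SAH 1d against sham, Plpp1 was not called with the block (adjusted p = 0.0581, edgeR) and Smpd3 not on FPKM without a filter (adjusted p = 0.0583, limma). No called value changed sign.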
